A study of Mus musculus with 35 samples.

Results

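The SR splicing factors Srsf1, Srsf2, Srsf3, Srsf4, Srsf5, Srsf6, Srsf7, Srsf11, Tra2a and Tra2b were followed in germ cells of mice lacking SMG6, the endonuclease that cuts mRNAs committed to nonsense-mediated decay (NMD). These 10 genes were chosen by name as SR factors whose genes are known for ultraconserved poison exons, and all 10 were found among the 24411 genes of the gene tables. They had 65 of the 110379 transcripts in the transcript tables. PolyA RNA was sequenced from fractions enriched for pachytene spermatocytes (Spc) and round spermatids (RS), with 3 libraries each of Smg6-cKO (cKO) and control (CTRL) testes. Total RNA was sequenced from isolated chromatoid bodies (CBs), the perinuclear RNA granules of round spermatids, in 3 cKO and 4 CTRL libraries. The cKO mice carried the floxed Smg6 alleles Smg6 fx/fx together with Ngn3Cre, in which the Neurogenin 3 promoter drives Cre in male germ cells early after birth. The controls were littermates without Cre that were homozygous or heterozygous for the floxed allele. All groups came from adult males on a mixed C57Bl/6J and SV129 background, and CBs were immunoprecipitated with an antibody to DDX4 from pooled testes.

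SR proteins carry RNA recognition motifs and a tail rich in arginine and serine, and they bind exonic enhancers to help the spliceosome define exons. Most of them regulate their own mRNA. When the protein is abundant, it promotes inclusion of a poison exon, which brings in an early stop codon, and the resulting transcript is handed to NMD. In Srsf1 and Srsf2 a comparable loop acts through splicing within the 3′ untranslated region. The testis is known for an unusually rich repertoire of alternative splicing, so both the level of these genes and the balance between their coding and NMD transcripts were of interest in cells without SMG6.

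The stop codons that define the poison exons are shown first, because the transcript comparisons below depend on them. In GENCODE, 8 of the 10 genes had an NMD transcript whose stop codon lay in such an exon, upstream of the stop of the main coding transcript. In Srsf6 this stop is shared by a short transcript that is annotated as coding. Srsf11 had 2 such exons in different NMD transcripts, and both are shown. The windows below are 30 bases of the exon around the stop codon, which is in capitals, read from the GRCm38 genome on the strand of the gene.
Srsf3, chr17:29039473-29039502, plus strand: ctcaccaccctcTGAatctgcattagccag
Srsf4, chr4:131884376-131884405, plus strand: catgccccagctTAGagtgcttcaccctac
Srsf5, chr12:80947116-80947145, plus strand: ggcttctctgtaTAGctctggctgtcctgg
Srsf6, chr2:162932952-162932981, plus strand: gccttttgccatTAGacgcagggtgatggt
Srsf7, chr17:80205039-80205068, minus strand: agtcagtcgcctTGAttcagaatgtcacga
Srsf11 (Srsf11-206 and Srsf11-210), chr3:158024194-158024223, minus strand: cctggttcagccTGAactatataccaggcc
Srsf11 (Srsf11-212), chr3:158023295-158023324, minus strand: gcttttgaaagtTGAgagcacacccctgga
Tra2a, chr6:49252950-49252979, minus strand: agattggtcagaTAGaagcacttgaatatt
Tra2b, chr16:22259166-22259195, minus strand: ctcaggaataagTGAagctgaaatttgaaa
The stop codon was TAG in Srsf4, Srsf5, Srsf6 and Tra2a and TGA in Srsf3, Srsf7, Srsf11 and Tra2b. It lay early in the exon in Srsf5, where 12 bases of the exon precede it, in the Srsf11 exon of Srsf11-206, with 20 bases, in Srsf7, with 25 bases, and in Srsf3, with 31 bases of an exon of 456. In Tra2a 141 bases precede it, and in Srsf6 149 bases. The NMD transcripts of Srsf1 and Srsf2 had no poison exon by this definition.

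The transcript tables used an annotation older than GENCODE vM21 and held 13 of the 18 NMD transcripts that GENCODE gives for these genes. For Srsf7 and Tra2a they held 1 transcript each, which codes for the protein, so no poison exon transcript could be followed in these genes. A transcript that holds the poison exon was present for 6 genes, namely Srsf3, Srsf4, Srsf5, Srsf6, Srsf11 and Tra2b. Fragments that overlapped several transcripts had been divided equally among them by the authors, and transcripts of 1 gene therefore share most of their counts.

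Spc and RS libraries held 36419197 to 47355837 gene counts and CB libraries 2705277 to 12103906, so that CB values rest on less depth. Levels are given as counts-per-million (CPM) values scaled by the trimmed mean of M-values (TMM), over the 12 Spc and RS libraries together and over the 7 CB libraries on their own. Each fold change came from edgeR's quasi-likelihood test on the groups compared, and p-values were adjusted by Benjamini-Hochberg over all genes or transcripts tested, with a pass at 0.05. Because each fit has its own scaling, a ratio of the CPM values can differ slightly from the fitted fold change, as for Srsf1 in Spc. The study's methods call the Spc and RS libraries biological replicates, each isolation using several testes, but the labels tie no library to particular mice. The p-values measure the spread between libraries. Smg6 itself, counted over the whole gene, was at 109 to 172 CPM in CTRL Spc and 182 to 189 in cKO Spc, at 143 to 235 in CTRL RS and 189.5 to 203 in cKO RS, and at 256 to 283 in CTRL CB and 231 to 292 in cKO CB. It passed in none of the 3 comparisons of cKO with CTRL, and a whole-gene count does not check the floxed part of the gene.

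The counts of marker genes of germ cell stages differed between CTRL and cKO libraries. The 10 late spermatid markers, protamine and tail genes such as Prm1 and Odf1, held 2.36 to 2.92% of gene counts in CTRL RS and 0.23 to 0.247% in cKO RS, and all 10 were lower in cKO RS. The same markers held 0.428 to 0.838% in CTRL Spc and 0.0498 to 0.157% in cKO Spc, and 0.277 to 0.593% in CTRL CB and 0.0414 to 0.0651% in cKO CB. The 11 spermatocyte markers found in the tables held 0.269 to 0.272% in CTRL RS and 0.385 to 0.398% in cKO RS, and 0.432 to 0.477% in CTRL Spc and 0.539 to 0.555% in cKO Spc. Of the 11, 7 were higher and 3 lower in cKO RS, and 3 were higher and none lower in cKO Spc. The 10 spermatid markers held 0.416 to 0.431% in CTRL RS and 0.228 to 0.248% in cKO RS, and 9 of them were lower in cKO RS. None of these germ cell markers was at 0 throughout a group.

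Markers of other testis cells were low but differed between the groups. Leydig cell markers held 0.0119 to 0.0402% in CTRL Spc and 0.0572 to 0.122% in cKO Spc, and rose in RS (5 of 5 tested) and in CBs (5 of 5). Sertoli cell markers fell in cKO Spc (6 of 9) and rose in cKO RS (8 of 8), from 0.0035 to 0.0046% to 0.0090 to 0.0263%. Of the 12 macrophage markers, 9 rose and 2 fell in cKO Spc and 11 rose and 1 fell in cKO RS. Their summed level was 0.0137 to 0.0212% in CTRL Spc and 0.0116 to 0.0128% in cKO Spc, 0.0384 to 0.0455% in CTRL RS and 0.0400 to 0.0546% in cKO RS, and 0.0185 to 0.0192% in CTRL CB and 0.0112 to 0.0139% in cKO CB. Of the 8 spermatogonial markers 5 rose and 1 fell in cKO RS, and of the 5 erythroid markers 4 rose and none fell, while myoid and endothelial markers held at most 0.0036% in any library. Fshr, a Sertoli cell marker, was at 0 throughout cKO CB. In bulk RNA, fewer cells of a type and less RNA per cell cannot be told apart, and the part of stage and cell composition in the differences below was not tested.

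Together the 10 genes took 0.127 to 0.153% of gene counts in CTRL Spc and 0.192 to 0.196% in cKO Spc. They took 0.0432 to 0.0481% in CTRL RS and 0.108 to 0.123% in cKO RS. The groups did not overlap in either cell type. In CBs the share was 0.0961 to 0.141% in CTRL and 0.122 to 0.19% in cKO, and there the groups overlapped.

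Levels per kilobase were taken over the union of all exons annotated in GENCODE, which includes retained introns. This length was 3550 bases in Srsf7, 3988 in Srsf5, 6945 in Tra2a and 7899 in Srsf3. The order of the genes depends on it and was not examined with the lengths of the coding transcripts. By this measure, Srsf5 was the most abundant of the 10 in control cells. It stood at 40.8 CPM per kb in CTRL Spc, 29.1 in CTRL RS and 56.7 in CTRL CB (means of 3, 3 and 4 libraries), and in Spc Srsf2 followed at 34.2 and Srsf7 at 30.4. Each of these overlapped in its libraries with the gene before it. In RS and in CBs, Srsf5 lay above the next gene, Srsf7, with no overlap. Tra2a was the lowest in Spc, at 13.1 CPM per kb, and in RS, at 5.37, where its libraries overlapped with those of Srsf3 at 5.84.

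By the same measure, and with the same dependence on length, Srsf7 took the top place in cKO cells. This factor, which differs from the other SR proteins by a zinc knuckle, stood at 70.5 CPM per kb in cKO Spc and 41.6 in cKO RS, above every other gene of the group with no overlap. Srsf3, the smallest SR protein, moved from the ninth place to the fifth in Spc and the sixth in RS. Srsf5 followed Srsf7 in cKO RS, where Srsf4 and Srsf2 had nearly the same level.

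**Figure D1:**
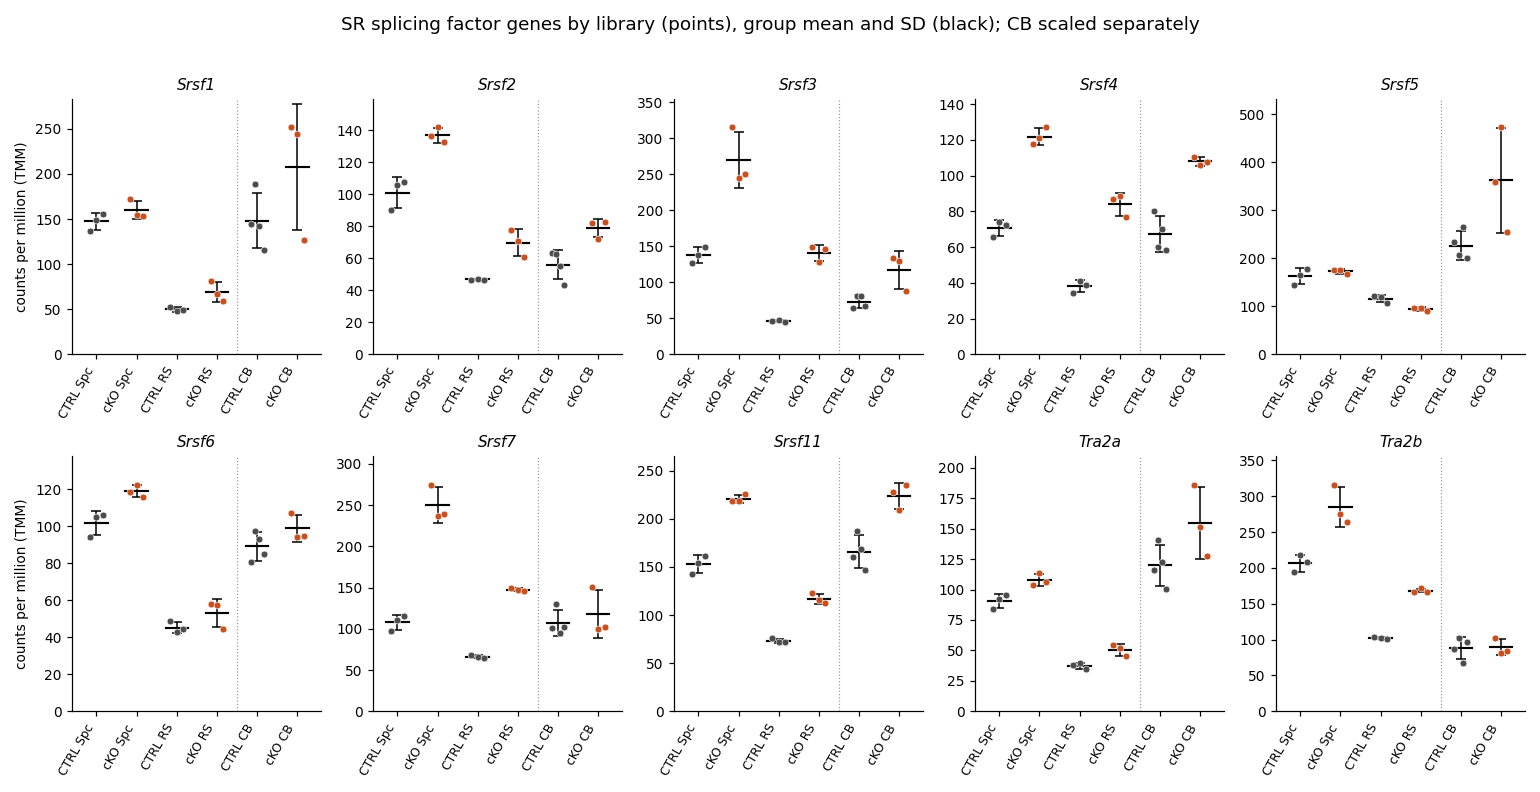
CPM of the 10 genes in every library (points), with the mean and SD of each group in black and each axis starting at 0; CB libraries, right of the dotted line, were scaled separately. Srsf3 and Srsf7 show cKO libraries far above CTRL in Spc and RS, while in Srsf5 the cKO RS libraries, at 90.4 to 96.6, lie below the CTRL RS libraries, at 107 to 122.

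In spermatocytes, 6 of the 10 genes rose in cKO and none fell. Over all 17321 genes tested, 14% passed in the upward direction. The median log2 fold change of the 10 was 0.34, beside a median of −0.01 over all genes.

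The strongest rise was that of Srsf7. It was at 97.3, 111 and 115 CPM in the CTRL Spc libraries and at 275, 236 and 239 in the cKO Spc libraries, so the lowest cKO library was well above the highest CTRL library. Its log2 fold change was 1.10 ± 0.09 (SE), a 2.15-fold rise, with an adjusted p of 0.000583 in edgeR's quasi-likelihood test. Srsf3 was at 127, 138 and 149 CPM in CTRL and 315, 244 and 250 in cKO, a log2 fold change of 0.86 ± 0.10 (edgeR adjusted p = 0.00315). Srsf4, an SR protein with paired RNA recognition motifs, was at 65.5 to 74.3 CPM in CTRL and 117 to 127 in cKO, a log2 fold change of 0.68 ± 0.08 (edgeR adjusted p = 0.00315). In all 3 genes the groups stood apart, and each passed with any library left out.

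Srsf11, an SR-related factor that contacts U2AF at the 3′ splice site, rose by a log2 fold change of 0.42 ± 0.07 (edgeR adjusted p = 0.0078), from 143 to 162 CPM in CTRL to 218 to 226 in cKO. Tra2b, which binds GAA-rich exonic enhancers, rose by 0.35 ± 0.08 on the log2 scale (edgeR adjusted p = 0.0186). Srsf2, a largely nuclear SR protein, rose by 0.33 ± 0.09 on the log2 scale (edgeR adjusted p = 0.031). The last of these calls was close to the limit. Srsf2 passed in 1 of the 6 fits that leave out 1 library, and Tra2b in 5 of 6, with an adjusted p of 0.0651 without CTRL Spc library 3.

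The other 4 genes did not pass in spermatocytes. Srsf1, the founding SR protein, had a log2 fold change of 0.01 ± 0.07, Srsf5 of −0.02 ± 0.09, Srsf6 of 0.12 ± 0.08 and Tra2a, the paralog of Tra2b, of 0.14 ± 0.08. Their edgeR adjusted p-values were 0.929, 0.858, 0.274 and 0.231.

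In round spermatids, 8 of the 10 genes rose in cKO and Srsf5 fell. Far more of the transcriptome differed here, since 38.4% of the 17492 genes tested passed upward and 34.3% downward. The median log2 fold change was 0.64 over the 10 genes and 0.11 over all genes. TMM scaling matters in this comparison. With library size in its place the median of all genes was 0.73 and that of the 10 genes 1.26, so the 10 genes lay 0.53 above the median of all genes by either scaling.

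Srsf3 changed most. It was at 45.8, 48.0 and 44.7 CPM in CTRL RS and at 149, 127 and 145 in cKO RS. The log2 fold change was 1.62 ± 0.08, a 3.07-fold rise (edgeR adjusted p = 1.43e-06), and among the 10 only Srsf3 passed with a change of 1.5 or more (3 of the 10 with library size scaling), as 14.8% of all genes did upward. Srsf7 was at 64.2 to 67.9 CPM in CTRL and 146 to 149.6 in cKO, a log2 fold change of 1.17 ± 0.06 (edgeR adjusted p = 1.66e-06). Srsf4 was at 34.4 to 41.0 CPM in CTRL and 76.7 to 88.6 in cKO, a log2 fold change of 1.16 ± 0.10 (edgeR adjusted p = 2.02e-05). The libraries of each group lay close together in these genes, and the 2 groups were far apart.

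Tra2b rose by 0.73 ± 0.06 on the log2 scale, Srsf11 by 0.68 ± 0.07, Srsf2 by 0.59 ± 0.10, Srsf1 by 0.48 ± 0.12 and Tra2a by 0.45 ± 0.10. Their edgeR adjusted p-values lay between 1.44e-05 and 0.00767, the groups did not overlap, and all 5 passed with any library left out. Tra2b was nearly constant within groups, at 102 to 104 CPM in CTRL RS and 167 to 171 in cKO RS. Srsf1 was spread over 58.8 to 81.1 CPM in cKO RS against 47.9 to 52.8 in CTRL RS.

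Srsf5 went the other way. This factor, first described as a growth-induced SR protein, was at 122, 119 and 107 CPM in CTRL RS and at 96.2, 96.6 and 90.4 in cKO RS. Its log2 fold change was −0.28 ± 0.07 (edgeR adjusted p = 0.00882). The sign depends on the scaling, as Srsf5 was higher in cKO by 0.33 with library size in place of TMM, but it lay 0.39 below the median of all genes by both. Without cKO RS library 1 or 3 its adjusted p was 0.0598 or 0.0892. Srsf6 was at 42.8 to 48.6 CPM in CTRL and 44.2 to 57.9 in cKO, with overlap, and did not pass (log2 fold change 0.25 ± 0.12, edgeR adjusted p = 0.0944), although it did without cKO RS library 3, where the log2 fold change was 0.42.

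The change from CTRL to cKO was compared between the cell types by an interaction term over all 12 libraries. Srsf3 rose more in RS than in Spc, by 0.64 ± 0.15 on the log2 scale (edgeR adjusted p = 0.00643), and it passed with any library left out. Srsf4 also rose more in RS, by 0.36 ± 0.13 (edgeR adjusted p = 0.0411), but passed in 4 of the 12 fits that leave out 1 library. For Srsf5 the change in RS was lower than that in Spc, by −0.38 ± 0.12 (edgeR adjusted p = 0.0257), and it passed in 8 of the 12. DESeq2 gave Srsf5 an adjusted p of 0.0647, which missed the limit, and called Srsf1 and Tra2b beside Srsf3 and Srsf4. Over all 18171 genes, 19% passed upward and 24.1% downward. Srsf7 had an interaction of −0.06 ± 0.12 and did not pass (edgeR adjusted p = 0.713). These values depend on the scaling. With library size in place of TMM the median interaction of all genes was 0.58 rather than −0.13, Srsf5 was at 0.33, and Srsf7 was at 0.66 and passed (edgeR adjusted p = 0.000932).

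**Figure D2:**
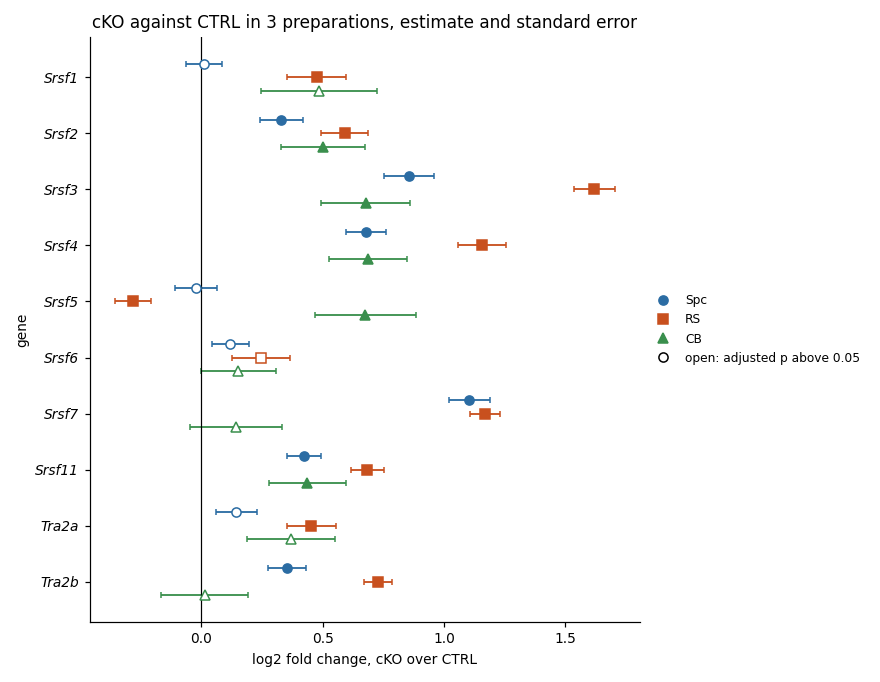
Log2 fold changes of cKO over CTRL (horizontal axis) with their standard errors for the 10 genes in Spc, RS and CBs; filled symbols passed at an adjusted p of 0.05. Srsf3 reaches 1.62 in RS, Srsf7 lies at 1.10 in Spc and 1.17 in RS but at 0.14 in CBs, and Srsf5 is the only gene with a filled symbol below 0.

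In isolated chromatoid bodies, 5 genes were higher in cKO, as 18.1% of the 14051 genes tested were. The median over the 10 genes was 0.46 and that over all genes 0.07. Srsf4 was at 58.6 to 79.9 CPM in the 4 CTRL libraries and at 111, 106 and 107 in the cKO libraries, so the groups were apart, with a log2 fold change of 0.69 ± 0.16 (edgeR adjusted p = 0.00552). Srsf3 rose by 0.68 ± 0.18 (edgeR adjusted p = 0.0119), Srsf2 by 0.50 ± 0.17 (edgeR adjusted p = 0.0369) and Srsf11 by 0.44 ± 0.16 (edgeR adjusted p = 0.0442).

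Srsf5 was among the genes that rose in CBs, unlike in RS. It was at 233, 206, 265 and 201 CPM in CTRL and at 358, 472 and 255 in cKO, with a log2 fold change of 0.67 ± 0.21 (edgeR adjusted p = 0.0221). The groups overlapped by the lowest cKO library, numbered 4 in the tables. Srsf7 and Tra2b, which passed in both cell types, had log2 fold changes of 0.14 ± 0.19 and 0.01 ± 0.18 in CBs and did not pass. Srsf1 at 0.48 ± 0.24, Tra2a at 0.37 ± 0.18 and Srsf6 at 0.15 ± 0.15 did not pass either. The difference between CBs and RS was not tested, since the libraries were made by different protocols.

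The calls in CBs were sensitive to single libraries. Between 1 and 4 genes passed when 1 library was left out, and only Srsf4 passed in all 7 such fits, while Srsf3 passed in 6, Srsf2 and Srsf5 in 2 and Srsf11 in 1. The count was also 1 without CTRL CB libraries 2 and 3, the libraries whose column names hold MVH, as no cKO column name does. Then Srsf3 passed (edgeR adjusted p = 0.0347) and Srsf4 did not (edgeR adjusted p = 0.0661), an alternative chosen after the data were seen. With single libraries left out the count was 1 without cKO CB library 2, 2 without CTRL CB library 1 or 5, and 3 without CTRL CB library 3 or cKO CB library 3. No gene of the 10 passed with library size in place of TMM, when the median of all genes was −0.08 and the 10 genes still lay 0.40 above it, while DESeq2 with its own size factors called 5.

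From spermatocytes to round spermatids, all 10 genes fell in control mice and all 10 fell in cKO mice. In CTRL, 39.7% of 17046 genes passed downward, and in cKO 26.4% of 17709. The median log2 fold change of the 10 genes was −1.22 in CTRL and −0.95 in cKO, beside −0.08 and 0.01 over all genes.

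In CTRL the largest falls were those of Srsf3, by 1.71 ± 0.09 on the log2 scale, and Srsf1, by 1.69 ± 0.08. These were the only 2 beyond 1.5 in size, as 17% of all genes were in that direction, but 7 were beyond it with library size in place of TMM, where the median of all genes was −0.54. Srsf1 went from 137 to 156 CPM in CTRL Spc to 47.9 to 52.8 in CTRL RS, a 3.23-fold fall. Srsf5 fell least, by 0.62 ± 0.10 on the log2 scale, with libraries at 144 to 178 CPM in Spc and 107 to 122 in RS. Tra2a fell by 1.41, Srsf6 by 1.30, Srsf2 by 1.24, Srsf11 by 1.19, Tra2b by 1.14, Srsf4 by 1.02 and Srsf7 by 0.84. Every gene had its RS libraries below its Spc libraries, and edgeR adjusted p-values were 0.000967 or lower.

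In cKO the order was different. Srsf1 fell most, by 1.24 ± 0.12, followed by Srsf6, by 1.19 ± 0.12, and Tra2a, by 1.12 ± 0.10. Srsf4 fell least, by 0.56 ± 0.09, from 117 to 127 CPM in cKO Spc to 76.7 to 88.6 in cKO RS. Srsf3 fell by 0.96 ± 0.10 and Srsf5 by 0.89 ± 0.07. The test that the fall differs between the genotypes is the interaction given above, which passed for Srsf3, Srsf4 and Srsf5. From Spc to RS, 10 of the 10 late spermatid markers rose in CTRL and 6 of 10 in cKO, with median log2 fold changes of 2.66 and 1.00, while 8 and 9 of the 11 spermatocyte markers fell, with medians of −1.62 and −1.03. Of the 6 Leydig cell markers 6 fell in CTRL and 5 in cKO, with medians of −4.90 and −2.67. Of the 9 Sertoli cell markers 9 fell in CTRL, with a median of −3.24, and 0 fell and 1 rose in cKO. Of the 12 macrophage markers 4 rose and 1 fell in CTRL, and 11 rose and 0 fell in cKO. The part of these stages and cell types in the fall of the SR genes was not tested.

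**Figure D3:**
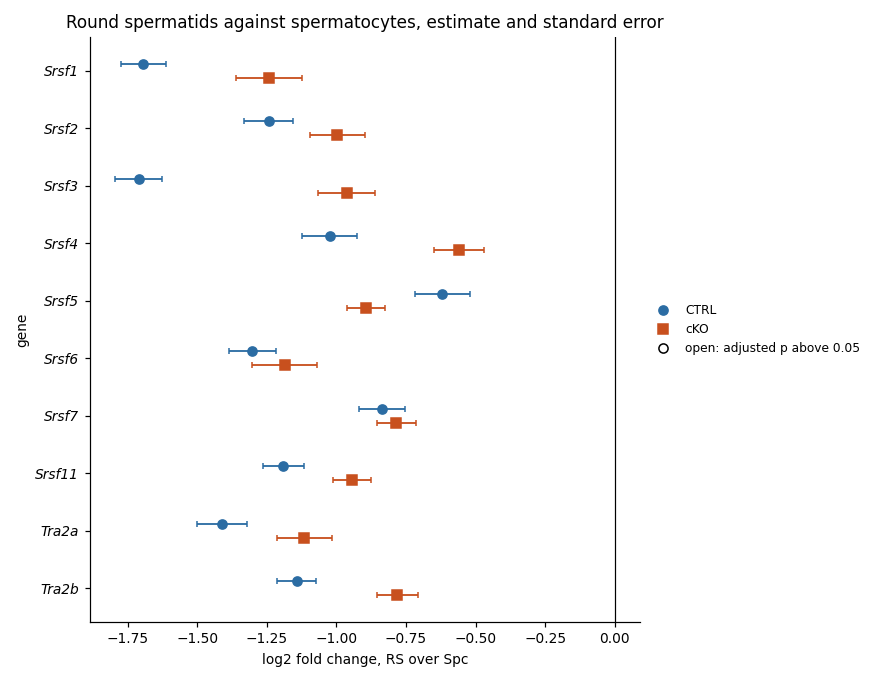
Log2 fold changes of RS over Spc (horizontal axis) with standard errors in CTRL and cKO mice. All symbols are filled and lie below 0, from −0.62 for Srsf5 to −1.71 for Srsf3 in CTRL and from −0.56 for Srsf4 to −1.24 for Srsf1 in cKO.

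At the level of transcripts, cKO Spc had 34 of the 65 transcripts higher and none lower, as 16.1% of all 57631 transcripts were higher. With 1 library left out the count in Spc was 22 to 29, the lowest without CTRL Spc library 3. In cKO RS 48 of 65 were higher and none lower (38.9% of 57133 were higher), and in cKO CBs 36 of 63 were higher and none lower (17.8% of 30623). The count in CBs was 1 with library size scaling, 9 without the filter, 6 without the libraries marked MVH and 15 to 35 with 1 library left out. From Spc to RS all 65 fell in CTRL and all 65 fell in cKO, as did 41.4% of 56018 and 27.7% of 58846 transcripts. In the interaction 14 of the 65 were higher in RS and none lower (19.4% of 61803). With 1 library left out, 8 to 29 were higher and 0 to 6 lower, and the count rose with library size scaling.

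Sorted by biotype, 9 of the 13 NMD transcripts rose in cKO Spc with a median log2 fold change of 0.39, 11 of the 23 coding transcripts with a median of 0.23, and 13 of the 24 transcripts with a retained intron with a median of 0.38. In cKO RS 11 of 13 NMD transcripts rose with a median of 0.67, 17 of 23 coding transcripts with 0.54 and 18 of 24 with a retained intron with 0.71. In cKO CBs 8 of 13 NMD transcripts rose, 14 of 23 coding and 11 of 22 with a retained intron. These CB calls depend on the scaling and on single libraries, as given above. Over all transcripts 16.1%, 38.9% and 17.8% rose in Spc, RS and CBs, and the shares of each biotype over all genes are not given. In Spc, 11 of the 13 NMD transcripts had a larger log2 fold change than the main coding transcript of the gene, by a median of 0.22, and in RS 8 of 13 had, with a median difference of 0.09. In CBs 8 of 13 had, with a median difference of 0.08 and a range of −0.87 to 0.42. Taken as a ratio of counts within libraries, which can be set beside other genes, the NMD transcript was higher against the coding one in cKO for 11 of 13 in Spc, 8 of 13 in RS and 7 of 13 in CBs. Of the NMD transcripts of all genes this held for 56.9%, 44.8% and 44.8%.

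The NMD transcripts of Srsf3 and Srsf4 rose in all 3 preparations. Srsf3-201 was at 21.2 to 24.9 CPM in CTRL Spc and 44.1 to 55.5 in cKO Spc, and at 7.42 to 8.33 in CTRL RS and 25.6 to 29.7 in cKO RS, with log2 fold changes of 1.00 and 1.88 in Spc and RS. The coding Srsf3-202 had 0.72 and 1.62. Srsf4-203 had log2 fold changes of 0.98 and 1.56 and Srsf4-204 of 0.90 and 1.43, beside 0.68 and 1.22 for the coding Srsf4-202. In each case the groups did not overlap. In CBs the log2 fold changes were 0.80 for Srsf3-201, 0.90 for Srsf4-203 and 0.69 for Srsf4-204, beside 0.72 for Srsf3-202 and 0.81 for Srsf4-202. Most transcript calls in CBs were lost with library size scaling, as given above.

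In Srsf1 and Srsf2 the NMD transcripts had larger log2 fold changes than the main coding transcript in Spc and RS. In Spc, Srsf2-202 rose by 0.46 and Srsf2-204 by 0.39 (edgeR adjusted p = 0.0153 and 0.0256), while the coding Srsf2-201 was at 0.13 and did not pass. The short coding Srsf2-206 lies within Srsf2-202 and had the same value of 0.46, since nearly all of their counts are shared. Srsf1-204 and Srsf1-207 had log2 fold changes of 0.16 and 0.17 in Spc, which did not pass, and rose by 0.62 and 0.67 in RS. The coding Srsf1-205 had −0.12 and 0.49. Another coding transcript, Srsf1-202, had a higher mean in cKO, at 19.75 against 17.43 CPM in Spc and 9.18 against 6.59 in RS. The exon with the stop of Srsf1-204 and Srsf1-207 lies wholly within coding transcripts. Their excess over Srsf1-205 is therefore not shown to be particular to NMD transcripts. Tra2b-206 rose by 0.49 in Spc and 0.86 in RS, beside 0.36 and 0.87 for the coding Tra2b-204. The 3 NMD transcripts of Srsf11 rose by 0.36 to 0.54 in Spc and 0.62 to 0.75 in RS, near the 0.38 and 0.79 of the coding Srsf11-204. Srsf5-208 and Srsf6-201 passed in neither cell type, at 0.03 and −0.18 for the former and 0.18 and 0.26 for the latter. The differences between an NMD transcript and the coding transcript are descriptions with no test.

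Usage, the change of a transcript relative to the others of its gene, passed for no transcript of the 10 genes in any comparison in edgeR's test. Of all transcripts, 0.0324% passed in Spc, 1.17% in RS, 0.406% in CBs, 1.5% from Spc to RS in CTRL and 0.111% in cKO. At an unadjusted p under 0.05 there were 2 of 63 transcripts of the 10 genes in Spc, 2 of 63 in RS, 4 of 61 in CBs, 3 of 63 in CTRL and 2 of 63 in cKO. Of all transcripts, 0.758%, 3.91%, 4.52%, 4.67% and 1.06% were under this limit. Since transcripts of a gene share counts in these tables, differences in usage are damped, and a transcript that misses the limit is not shown to keep its usage.

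Because fragments were shared among transcripts, the transcript most specific for the poison exon was also compared with the main coding transcript within each library. It was taken as the transcript with the largest part of its length in the poison exon, by annotation alone but after the values had been seen, and the ratios are a description with no test of their own. The part was 51.1% in Srsf3-203, 42.0% in Tra2b-202, 35.6% in Srsf5-208, 32.0% in Srsf6-202, 29.8% in Srsf11-212 and 24.3% in Srsf4-203. Srsf3-203 is annotated as a retained intron transcript, Tra2b-202 as a processed transcript, Srsf6-202 as coding and the others as NMD transcripts. A ratio within a library does not depend on the scaling between libraries.

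In Srsf11 the transcript chosen holds the exon of Srsf11-212 and not that of Srsf11-206.

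Srsf3-203, which holds the whole exon with the TGA shown above, had the clearest shift. It is annotated with a retained intron and not as an NMD transcript, so fragments of the intron and of the exon are not separated. Its count was 30.5, 30.9 and 27.3% of that of Srsf3-202 in the CTRL Spc libraries and 46.3, 48.3 and 52.6% in cKO Spc. In RS it was 48.8, 46.8 and 50.7% in CTRL and 72.2, 77.8 and 70.0% in cKO. The ratio was thus higher in cKO than in CTRL in both cell types and higher in RS than in Spc in both genotypes, each time with no overlap. In usage, Srsf3-203 had a log2 change of 0.57 ± 0.11 in Spc and 0.47 ± 0.11 in RS, at unadjusted p of 0.0041 and 0.00851 that did not hold over all transcripts (edgeR adjusted p = 1.00 and 0.395). Its own level rose by 1.45 ± 0.09 in Spc and 2.21 ± 0.09 in RS on the log2 scale, the largest rise of the 65 transcripts in either cell type.

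Tra2b-202 and Srsf4-203 also had higher ratios in cKO than in CTRL, by less than Srsf3-203. The ratio of Tra2b-202 to Tra2b-204 was 11.1 to 13% in CTRL Spc and 15.1 to 15.7% in cKO Spc, and 13 to 14.2% in CTRL RS and 16.6 to 17.9% in cKO RS. The ratio of Srsf4-203 to Srsf4-202 was 19.3 to 23.0% in CTRL Spc and 26.0 to 27.8% in cKO Spc, and 19 to 20.9% in CTRL RS and 24.5 to 26.4% in cKO RS. The cKO libraries lay above the CTRL libraries in both genes and both cell types. Tra2b-202 is not annotated as an NMD transcript. Tra2b-206, which is, had log2 fold changes of 0.49 in Spc and 0.86 in RS, beside 0.36 and 0.87 for Tra2b-204. Over the genome, the ratio of an NMD transcript to the main coding transcript was higher in cKO with no overlap for 15.8% of 3540 NMD transcripts in Spc and 12.7% of 3319 in RS, and lower with no overlap for 23.2% in RS. From Spc to RS it was higher with no overlap for 31.8% in CTRL and 19.6% in cKO. This background is of NMD transcripts and not of transcripts chosen for a poison exon.

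In Srsf11, Srsf5 and Srsf6 the ratio showed no such shift across both cell types. Srsf11-212 stood at 10.5 ± 0.2% of Srsf11-204 in CTRL Spc and 11.7 ± 0.2% in cKO Spc (SD, n = 3), apart from each other, but at 10.4 ± 1.0% and 10.1 ± 1.0% in CTRL and cKO RS. Srsf5-208 stood at 40.2 ± 1.3% and 40.7 ± 0.7% of Srsf5-205 in CTRL and cKO Spc and at 39.1 ± 1.3% and 39.5 ± 1.6% in RS, less than the spread between libraries. Srsf6-202, annotated as coding although 165 of its 515 bases lie in the poison exon, was at 19.7 ± 1.7% of Srsf6-203 in CTRL Spc and 21.8 ± 0.5% in cKO Spc, with overlap, and at 21.2 ± 1.5% in CTRL RS and 18.7 ± 0.4% in cKO RS, with none.

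In CBs the ratios were set by fewer counts. Tra2b-202 was at 36.8 to 49.3% of Tra2b-204 in CTRL and 50.8 to 58.2% in cKO, and Srsf5-208 at 40.8 to 48.3% of Srsf5-205 in CTRL and 51.6 to 55.0% in cKO, both with no overlap. For Srsf3 the groups overlapped, at 46.7 to 67.8% in CTRL and 57.7 to 77.8% in cKO. They also overlapped for Srsf4, at 22.3 to 34.7% and 21.4 to 34.7%, and for Srsf6, at 19.3 to 24.3% and 12.1 to 24%. Srsf11-212 was lower in cKO, at 7.34 to 9.32% against 10 to 16% of Srsf11-204 in CTRL. Of 1144 NMD transcripts in CBs, 9.44% were higher and 11.6% lower in cKO with no overlap.

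**Figure D4:**
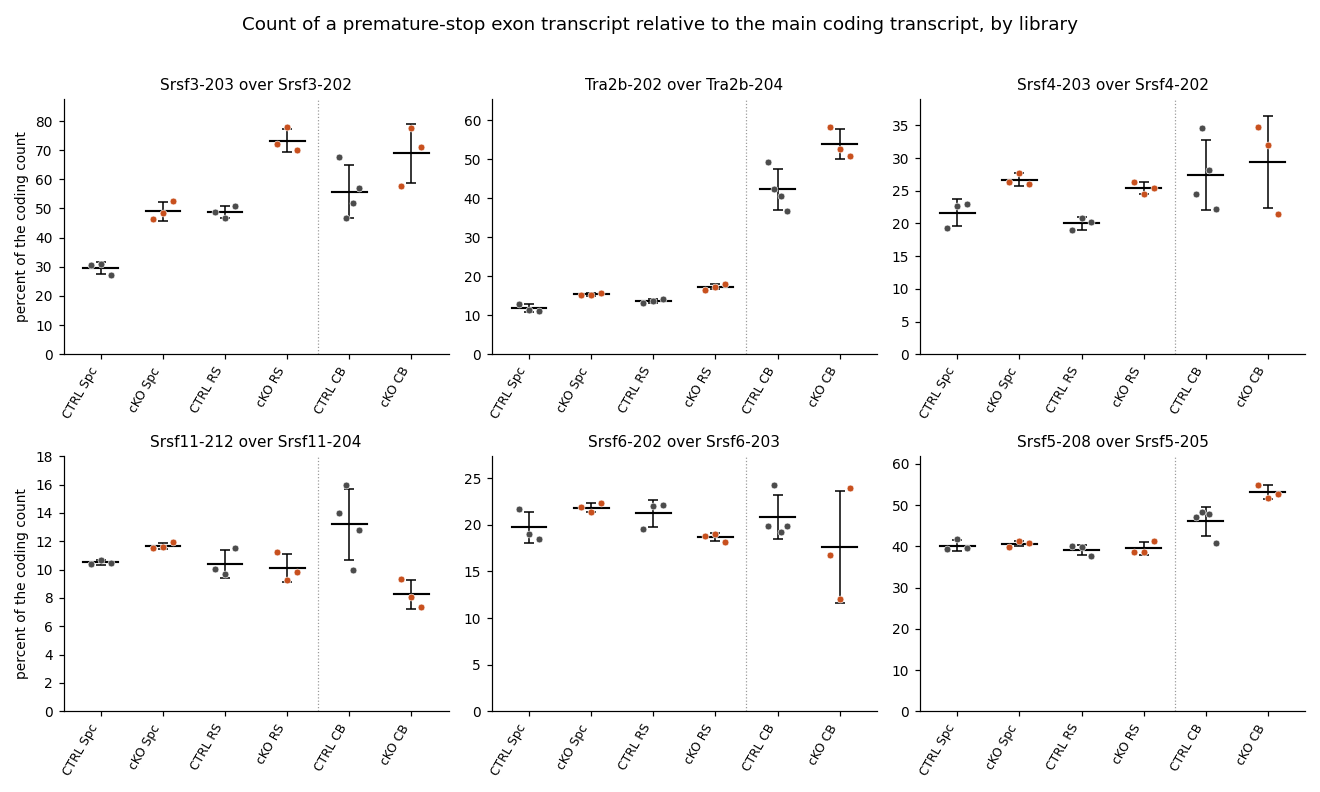
Count of the transcript most specific for the poison exon as a percentage of the count of the main coding transcript, in every library (points), with mean and SD of each group in black, axes starting at 0 and CBs right of the dotted line. The ratio for Srsf3 rises from 27.3 to 30.9% in CTRL Spc to 46.3 to 52.6% in cKO Spc and from 46.8 to 50.7% to 70.0 to 77.8% in RS, while that for Srsf5 stays near 40% in Spc and RS.

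The share of all transcript counts of a gene on its NMD transcripts could be given for 8 genes. In Spc it was higher in cKO in 7 of the 8, as in 57.7% of all genes with such transcripts, and with no overlap in 5, namely Srsf1, Srsf2, Srsf3, Srsf4 and Srsf11, as in 15.5% of these 2749 genes. In RS it was higher in 4 of the 8, Srsf1, Srsf2, Srsf3 and Srsf4, each with no overlap, and lower in the other 4 with overlap. Of 2670 genes 49.0% were higher, and 16% were higher with no overlap. Srsf4 had the largest differences, with 19.1 ± 1.2% in CTRL Spc and 22.2 ± 0.3% in cKO Spc and 18.8 ± 0.5% in CTRL RS and 21.9 ± 0.6% in cKO RS (SD, n = 3). Srsf3 followed in RS, with 23.1 ± 0.4% and 25.4 ± 0.2%. For each of these the exact permutation p was 0.1, the smallest that 3 against 3 libraries allow, so none could pass.

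In CBs the share was higher in cKO with no overlap for Srsf5, at 4.12 ± 0.29% in CTRL and 4.74 ± 0.12% in cKO, and for Tra2b, at 22.3 ± 0.8% and 24.2 ± 0.2%, each with an exact permutation p of 0.0286, the smallest that 3 against 4 libraries allow. These p-values are not adjusted for the number of genes examined, and neither gene is counted as passing. Over 1849 genes, 10.1% were higher with no overlap. In Srsf11 it was lower, at 4.34 ± 0.55% in cKO against 6.70 ± 1.14% in CTRL (exact permutation p = 0.0571), and 8.55% of all genes were lower with no overlap. The largest difference was in Srsf6, at 17.7 ± 4.9% in cKO and 23.1 ± 1.1% in CTRL, where the groups overlapped (exact permutation p = 0.0571).

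From Spc to RS the share was higher with no overlap in 6 of 8 genes in CTRL, as in 27% of 2655 genes, and in 2 of 8 in cKO, Srsf3 and Tra2b, as in 16.6% of 2808. The CTRL values rose by 0.194 percentage points in Srsf11 to 1.92 in Tra2b among these 6.

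**Figure D5:**
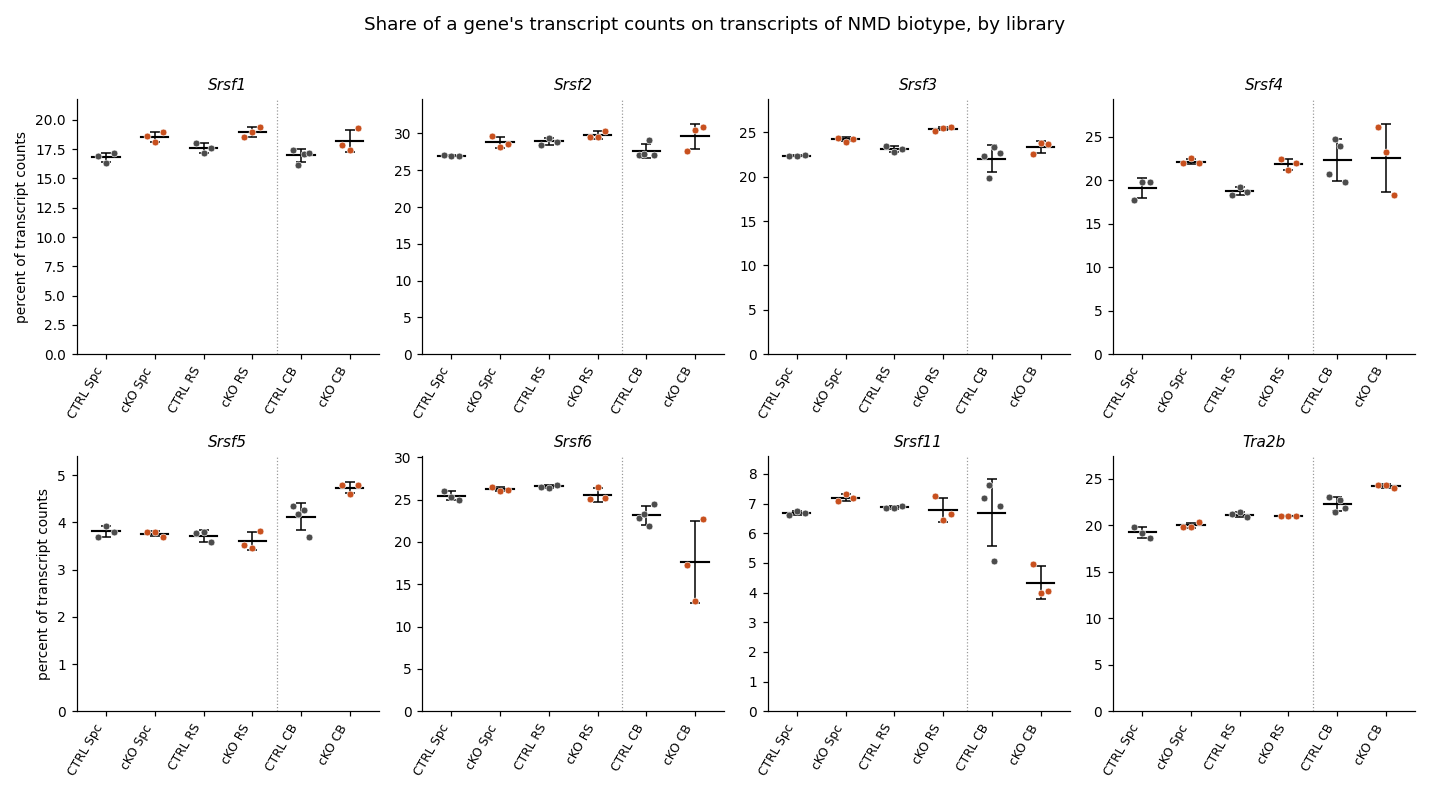
Share of a gene's transcript counts on its NMD transcripts, in percent, for 8 genes in every library (points), with mean and SD in black, axes starting at 0 and CBs right of the dotted line. Srsf4 goes from 19.1% in CTRL Spc to 22.2% in cKO Spc, Srsf5 lies between 3.46 and 4.80% in all libraries, and CB libraries spread more than Spc and RS libraries.

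Further transcripts with retained introns are described for Srsf5 and Srsf11, although none passed the usage test. In Srsf5, all exon bases of the coding Srsf5-203 lie within the retained intron transcript Srsf5-212, so the excess of the latter comes from fragments that touch the intron. This excess was 22.7 to 26.0% of the count of Srsf5-212 in CTRL Spc and 23.1 to 30.8% in cKO Spc, with overlap, and 22.2 to 24.8% in CTRL RS and 26.9 to 33.3% in cKO RS, with none. How often such an excess separates the groups in other genes was not examined, so it is not shown to be particular to Srsf5. In Srsf11, the retained intron transcripts Srsf11-203 and Srsf11-208 had log2 fold changes of −0.03 and −0.16 in cKO Spc and did not pass, while 14 of the other 17 transcripts of the gene rose by 0.36 to 0.54. For Srsf11-208 the usage change was −0.45 ± 0.07 in Spc at an unadjusted p of 0.0128 (edgeR adjusted p = 1.00). These transcripts were singled out after their values were seen.

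Other genes of the splicing machinery were counted for comparison. Of 30 further SR, SR-related and U2AF genes, 10 rose and 1 fell in cKO Spc, 22 rose and 2 fell in cKO RS, and 22 rose and none fell in cKO CBs, with medians of 0.19, 0.59 and 0.61 on the log2 scale. Of all genes 14%, 38.4% and 18.1% rose, with medians of −0.01, 0.11 and 0.07. From Spc to RS 26 of the 30 fell in each genotype and none rose, as 39.7% of all genes fell in CTRL and 26.4% in cKO. In Spc the lowest adjusted p-values belonged to Bclaf1, at a log2 fold change of 0.80, Luc7l2, at 0.67, Srsf9, at 0.50, and Rbm39, at 0.50, and in RS to Luc7l2, at 1.31, Srrm1, at 1.29, Bclaf1, at 1.28, and Rbm39, at 1.03. In CBs they belonged to Luc7l3, at 1.60, Arglu1, at 1.53, Srek1, at 1.05, and Luc7l2, at 1.01. Of these, Luc7l2 and Luc7l3 are relatives of a yeast U1 snRNP subunit, Srrm1 is a coactivator within the SR family network, and Srsf9 is a close relative of Srsf1.

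The kinases that phosphorylate SR proteins, and their importer Tnpo3, included genes that rose and genes that fell. Of the 9 tested, 3 rose and 1 fell in cKO Spc, 4 rose and 3 fell in cKO RS, and 2 rose and 3 fell in cKO CBs. Of all genes 14% rose and 14.1% fell in Spc, 38.4% and 34.3% in RS, and 18.1% and 18.4% in CBs. Srpk2, which phosphorylates SR proteins in the cytoplasm, had log2 fold changes of −0.75 in Spc, −2.49 in RS and −0.96 in CBs, and fell in each. Prpf4b, a kinase of the spliceosome, had 0.75, 2.30 and 0.92, and rose in each. Their changes also differed between the cell types, with interactions of −1.87 for Srpk2 and 1.43 for Prpf4b (edgeR adjusted p = 0.000101 and 7.19e-05). From Spc to RS in CTRL, Srpk2 rose by 1.41 while Prpf4b fell by 1.97 and Tnpo3 by 2.02.

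Across the 12 Spc and RS libraries, the 10 genes followed a common pattern, with Srsf5 the least like it. The Pearson correlation of a gene with the mean of the other 9 on the log2 scale ranged from 0.71 for Srsf5 and 0.83 for Srsf7 to 0.996 for Srsf2. The genes outside the group closest to its mean were Rfxap, Myef2, Mir8094, Mrps10 and Krit1, all with a correlation of at least 0.99. These are descriptions over 12 libraries that form 4 groups of 3, and all points share the difference between the cell types.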

How the data were processed

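PolyA RNA of Spc and RS and total RNA of CBs were used, and the small RNA libraries were not used here. Per the submitters' processing notes in the labels, the authors used cutadapt 2.8, STAR 2.7.1a and GRCm38, and the study's methods name other releases of STAR and featureCounts for these libraries. The deposited gene counts came from TEtranscripts with the reverse strand setting. The expected counts of transcripts were made by the authors with featureCounts 2.0.1, which split a fragment equally among all transcripts it touched, and were rounded to whole numbers here. Of the 110379 transcripts, 108214 were found in GENCODE vM21, which gave positions and biotypes.

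Genes with at least 10 counts, and transcripts with at least 20, in at least 3 libraries were tested by edgeR 4.0.16 in R 4.3.3 (TMM, quasi-likelihood, Benjamini-Hochberg). Usage was tested with edgeR's diffSpliceDGE and NMD shares by two-sided exact permutation tests. For the background of ratios, NMD transcripts needed 20 counts in 3 libraries and coding transcripts 20 in all. Scripts were tested on simulated data. Of changes of 1 on the log2 scale, the gene test recovered 24% in Spc, 49% in RS, 47% in CBs and 15.5% in the interaction. The usage test recovered 13.5%, 41.9% and 4.82% in Spc, RS and CBs, and 84.9%, 86.5% and 84.4% of changes of 2. Of the transcripts called in the simulation with changes of 1, 14.9%, 12.3% and 17.9% were unchanged ones. DESeq2 1.42.0, library size scaling, no filter, a replicate block and leaving out single libraries were the alternatives. Python 3.11.15 with pandas 2.3.3, scipy 1.17.1 and matplotlib 3.10.9 was used for the rest. The text names all 10 genes, Smg6, all NMD transcripts tested, the main coding transcripts, up to 4 genes of lowest adjusted p per pathway list and the 5 genes most like the group. The members and lists were chosen with earlier results of these data known. Spc and RS libraries with the same number were not paired by the labels, and their deviations correlated at −0.33 to 0.61 over 12170 genes. CB libraries carry the numbers of the table columns (CTRL 1, 2, 3 and 5 and cKO 2, 3 and 4), which differ from those in the sample titles.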

Additional observations from a re-analysis of the deposited data

Results flagged for a closer look

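For 3 genes the change from CTRL to cKO differed between RS and Spc in the interaction test. The difference on the log2 scale was 0.64 for Srsf3, 0.36 for Srsf4 and −0.38 for Srsf5. Of all genes, 19% were higher and 24.1% lower in this test, and of the 10 genes 2 were higher and 1 lower, near or below these shares. Srsf4 passed in 4 and Srsf5 in 8 of the 12 fits with 1 library left out. The sign for Srsf5 was positive with library size scaling, and DESeq2 gave it an adjusted p of 0.0647, which missed the limit.

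In 1 case a single library stood apart from its group. The share of Srsf2 counts on NMD transcripts was 29.1% in CTRL CB library 3 and 27.1 to 27.2% in the other CTRL CB libraries, a gap of 0.946 of the whole range, above the 95% limit of Dixon's test for 4 samples. Chance alone gives about 1 such case in 20 groups, and 18 groups of 4 were examined.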

How the results depend on the processing

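The total counts of genes that passed in Spc, in RS and from Spc to RS stayed within 1.5 times of the reported ones under every alternative run. With library size scaling, 10 rose and none fell in RS, where 8 rose and 1 fell as reported, 3 rather than 1 rose by 1.5 or more there, and 7 rather than 2 fell by more than 1.5 from Spc to RS in CTRL. Srsf5 was not called in RS with transcript counts summed per gene or without cKO RS library 1 or 3. In CBs, 5 genes passed as reported, 0 with library size scaling, 3 without the filter, 1 without the libraries marked MVH (an alternative chosen after seeing the data) and 1 to 4 with 1 library left out. In the interaction, 3 genes passed as reported, 9 with library size scaling, 4 with DESeq2 (Srsf5 lost, Srsf1 and Tra2b gained), 1 with the replicate block and 1 to 4 with 1 library left out. Of the transcripts in CBs, 36 passed as reported, 1 with library size scaling, 9 without the filter, 6 without the MVH libraries and 15 to 35 with 1 library left out. In the interaction of transcripts, 14 passed as reported, 23 with DESeq2, 55 with library size scaling, 9 without the filter and 8 to 29 with 1 library left out. In Spc 34 transcripts passed as reported and 22 to 29 with 1 library left out, the lowest without CTRL Spc library 3. Usage passed for 0 transcripts as reported and for 0 to 1 with 1 library left out in CBs and from Spc to RS in CTRL.

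Library size scaling turned the sign of Srsf5 in RS to 0.33, of Smg6 in RS to 0.62, of Srsf5-208 and Srsf5-205 in RS to 0.35 and 0.34, and in the interaction of Srsf5 to 0.33, Srsf7 to 0.66, Srsf6-201 to 0.60 and Srsf7-201 to 0.62. The causes were not tested. The correlation of deviations of same-numbered libraries was not above 0.1 in every pair of any comparison, so the numbers were not taken to pair the samples, although single pairs reached 0.40 and 0.61. With the replicate block, Srsf4 and Srsf5 missed the limit in the interaction (edgeR adjusted p = 0.0532 and 0.0603). No paired analysis was possible for CBs because the numbers of the columns do not match those of the titles. CB values rest on 2705277 to 5980996 gene counts per cKO library.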
